A study of Mus musculus with 12 samples.

Results

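Within the tumours labelled Pck1-null, 3 of 7 RNA sequencing libraries carried a strong granulocyte signal and 4 did not. The classes were chosen by the measured level of Mpo, which encodes the myeloperoxidase of neutrophil granules. A level above 3.5 on the log2 CPM scale (CPM, counts scaled to library size, with TMM scaling and a prior count of 2) put KO replicates 3, 4 and 6 in the high class, and KO replicates 1, 2, 5 and 7 were below it. These 7 libraries are part of a series of 12, whose other 5 are from wild-type mice (WT). All 12 came from hepatocellular carcinoma of the liver in mice treated with diethylnitrosamine, a carcinogen that hepatocytes activate. The labels give no dose, age, sex or strain and do not describe the Pck1 allele, the cells it was deleted in or the number of nodules per sample. They do not say that each library came from a separate animal, and a p-value then measures only the spread between these samples.

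Since the libraries were divided by what was measured in them, every difference between the classes is a description and carries no test. The study itself compared genotypes, and that comparison, the only one tested here, does not use the division. Values are log2 CPM throughout, with a gene without any count listed at −3.95. Values of the high libraries are given in the order KO replicates 3, 4 and 6, and those of the low libraries in the order 1, 2, 5 and 7. A difference is the mean of the 3 high libraries minus the mean of the 4 low ones, and a gene is called higher or lower only where the 3 and the 4 values do not overlap.

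Neutrophils arise from progenitors in the bone marrow, and their granules are filled in waves. Azurophil granules with myeloperoxidase and serine proteases are made first, specific and gelatinase granules later, and the genes of mobile mature cells last. Liver is a blood-forming organ before birth, and in adult mice it can hold islands of blood formation with granulocyte, megakaryocyte and red cell precursors. Chemokines of the CXC family draw neutrophils through the receptor Cxcr2, and granulocyte colony-stimulating factor drives their production through Csf3r.

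The 250 bases before the start of Mpo (chr11:87793534-87793783, plus strand), Elane (chr10:79886062-79886311, plus strand), Prtn3 (chr10:79879417-79879666, plus strand), Ctsg (chr14:56102575-56102824, minus strand) and Camp (chr9:109849457-109849706, minus strand) are shown, since 4 of these genes were higher without overlap and Prtn3, their neighbour in function, was not. The sequences are from RefSeq (GRCm38.p6), 5′ to 3′ on the gene's strand, with matches to AGGAAGT in capitals. This is a core that the myeloid factor PU.1 and other ETS factors bind.
Mpo: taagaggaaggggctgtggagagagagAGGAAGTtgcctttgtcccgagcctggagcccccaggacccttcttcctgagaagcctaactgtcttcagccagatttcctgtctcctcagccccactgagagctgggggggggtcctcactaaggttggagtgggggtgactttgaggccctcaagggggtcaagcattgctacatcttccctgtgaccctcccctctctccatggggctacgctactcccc
Elane: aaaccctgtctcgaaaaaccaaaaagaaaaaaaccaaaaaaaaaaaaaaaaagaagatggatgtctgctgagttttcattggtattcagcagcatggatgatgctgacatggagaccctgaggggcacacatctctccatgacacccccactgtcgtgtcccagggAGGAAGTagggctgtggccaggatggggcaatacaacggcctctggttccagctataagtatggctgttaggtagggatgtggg
Prtn3: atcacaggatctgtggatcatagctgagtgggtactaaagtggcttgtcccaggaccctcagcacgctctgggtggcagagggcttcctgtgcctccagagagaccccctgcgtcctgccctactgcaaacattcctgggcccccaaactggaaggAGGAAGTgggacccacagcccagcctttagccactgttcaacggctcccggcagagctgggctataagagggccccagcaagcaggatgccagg
Ctsg: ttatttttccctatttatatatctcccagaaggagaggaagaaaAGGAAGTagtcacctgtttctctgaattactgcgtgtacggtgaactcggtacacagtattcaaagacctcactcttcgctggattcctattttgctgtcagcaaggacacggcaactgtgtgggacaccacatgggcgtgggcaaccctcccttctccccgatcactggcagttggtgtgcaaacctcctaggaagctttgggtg
Camp: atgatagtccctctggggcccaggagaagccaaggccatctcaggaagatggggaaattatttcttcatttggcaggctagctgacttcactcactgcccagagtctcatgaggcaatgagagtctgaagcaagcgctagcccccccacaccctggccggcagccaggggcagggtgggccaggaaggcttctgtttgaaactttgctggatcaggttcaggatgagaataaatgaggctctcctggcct

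AGGAAGT, searched on both strands, was found once in the windows of Mpo, Elane, Prtn3 and Ctsg and not in that of Camp. It was present in 7 of the 11 azurophil granule genes and in 5 of the 11 specific and gelatinase granule genes that had a window, against 8.80% of all 27025 genes with one. In other lists AGGAAGT was in 5 of 22 mature neutrophil genes, 1 of 10 megakaryocyte and platelet genes and 1 of 20 erythroid genes. TTGCNNAA, which C/EBP factors bind, was in 2 and 4 of the granule genes (10.8% of all genes). AGATAA, which GATA factors bind, was in 0 and 3 (11.4%). None of the 5 sequences shown holds the C/EBP or GATA pattern. The letters were chosen after these sequences were read, so the matches are a description.

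Total counts were 17462102 to 23663506 in 7 libraries, here called shallower, and 43071365 to 46747125 in the other 5, called deeper. KO replicates 4 and 6 of the high class and KO replicate 5 of the low class were deeper. Xist, which coats the inactive X, was above 6 log2 CPM in KO replicates 1, 2, 3, 5 and 6. It was below −3 in KO replicates 4 and 7, so each class held an Xist-low library. In WT, Xist was 123 CPM in WT replicate 4 and 0.0456 to 0.702 CPM in WT replicates 1, 2, 3 and 5. Most KO libraries were thus Xist-high and most WT libraries Xist-low. The part of sex in comparisons with WT was not tested. Pck1, the targeted gene, was 10.19, 6.79 and 8.36 in the high libraries, 7.77, 9.47, 7.19 and 7.47 in the low ones and 10.05 to 12.51 in WT. The library labelled KO replicate 3 therefore lay within the WT range of Pck1, and the other 6 lay below it. KO and WT differed by −3.28 ± 0.67 (SE) with an edgeR adjusted p = 0.170. Alb was 14.96 to 16.78 in the 7 libraries, and Hnf4a, the hepatocyte transcription factor, was 8.77 to 9.80, so hepatocyte markers were present in each.

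The 5 genes that mark the class were high in the same 3 libraries. Mpo stood at 6.46, 3.93 and 4.03 in the high libraries, at 1.50, 2.13, −0.18 and −0.87 in the low ones, and at −1.15 to 0.97 in WT. The libraries next to the threshold were KO replicate 4 at 3.93 and KO replicate 2 at 2.13. The difference was 4.16, or 17.9-fold, with SDs of 1.43 in the high (n = 3) and 1.40 in the low class (n = 4). Mpo counts were 1825, 852 and 758 against 66, 80, 37 and 11. KO replicate 3 thus had the strongest signal by far, and the low libraries reached down to the level of WT.

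Elane, the neutrophil elastase, was 5.92, 3.28 and 3.32 against 0.53, 1.52, −0.75 and −0.23, a difference of 3.90. Camp, the cathelicidin of specific granules, was 6.63, 4.10 and 4.30 against 1.16, −0.03, 0.38 and −0.87, a difference of 4.85. S100a8 and S100a9 form calprotectin, the main protein of the neutrophil cytosol. S100a8 was 8.41, 5.41 and 6.41 against 3.02, 2.53, 2.85 and 2.84, and S100a9 was 8.88, 6.04 and 6.97 against 3.67, 3.28, 3.64 and 3.71. For both S100 genes the low libraries lay within the WT range, at 2.42 to 3.56 and 3.23 to 4.06. Together the 5 genes gave 1056, 150 and 256 CPM in the high libraries, 21.8 to 27.0 CPM in the low ones and 16.3 to 33.7 CPM in WT. In bulk RNA, more granulocytes and more granule RNA per cell cannot be told apart.

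**Figure D1:**
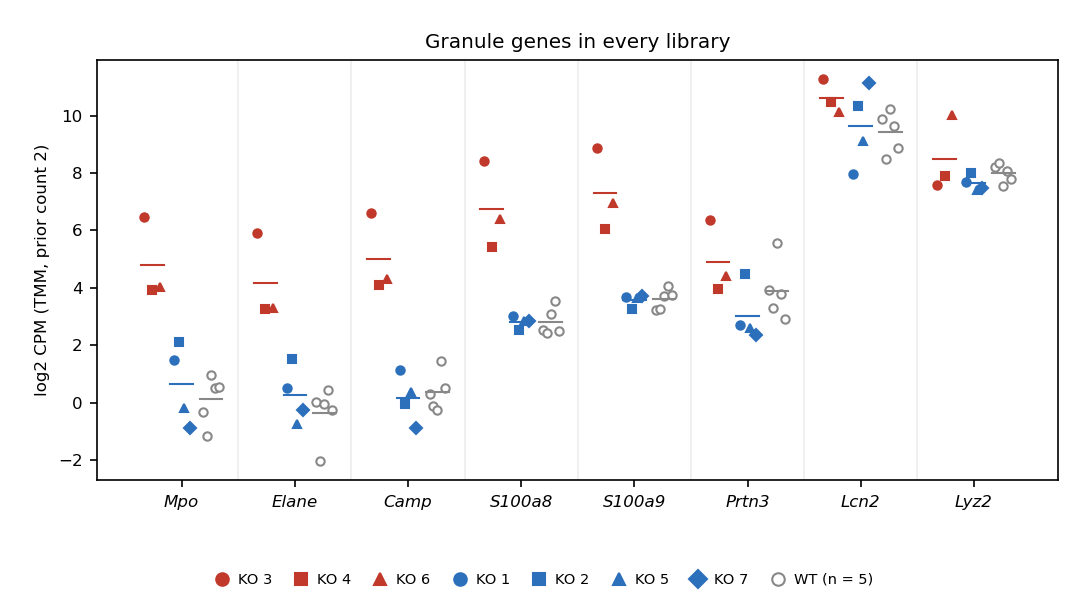
Level of 8 genes of neutrophil granules or cytosol (log2 CPM) in the 3 high libraries (red), the 4 low libraries (blue) and the 5 WT libraries (open grey circles), with a short line at each mean. The 5 marker genes on the left split the KO libraries without overlap, while Prtn3, Lcn2 and Lyz2 overlap.

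Mpo is on chromosome 11 (87793784 to 87804412), Elane on chromosome 10 (79886312 to 79888216), Camp on chromosome 9 (109847377 to 109849456), and S100a8 (90669071 to 90670034) and S100a9 (90692630 to 90695721) are neighbours on chromosome 3 (GRCm38.p6). Over all 7 KO libraries against WT, edgeR's quasi-likelihood test gave log2 fold changes of 3.99 ± 1.24 (SE) for Mpo, 3.91 ± 1.23 for Elane, 3.86 ± 1.32 for Camp, 3.26 ± 1.12 for S100a8 and 3.03 ± 1.04 for S100a9. Their adjusted p-values were 0.218, 0.220, 0.246, 0.246 and 0.246, so none passed 0.05. With DESeq2 all 5 passed, at adjusted p-values of 0.00461, 0.00558, 0.0104, 0.0158 and 0.0187. Over 15 alternatives the adjusted p for Mpo ranged from 0.00461 to 0.445.

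Of 14523 genes with a mean of at least 0.5 CPM over the 7 libraries, 524 (3.61%) were higher in the high class and 400 (2.75%) were lower. With a difference of at least 1 the counts were 372 (2.56%) and 35 (0.241%). With library size as the only scaling the counts were 721 higher and 151 lower, and the median difference of all genes moved from −0.01 to 0.09. The division used this contrast, so nothing is read from these shares. Of the 524 higher genes, 155 had all 3 high libraries above all WT libraries, and 111 had all 4 low libraries below all WT libraries. The filter on low values kept 121 of the 524 only through their level in the high class. Such genes had to differ, so the counts and medians of lists given below describe the genes that passed and support nothing, and the number that also pass within the low libraries is given where it is smaller by 3 or more. The 31 gene lists described below held 89 of the 524 higher genes and 0 of the 400 lower genes. Their 614 genes were chosen with earlier results of these data known and include Mpo, by which the classes were divided. How many of the 614 are among the 14523 tested genes is not given, so neither count is read as an excess or a lack.

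Early granule genes were split. All 12 azurophil granule genes passed the filter and had a positive difference. Their median was 2.35 against −0.01 over all genes tested, and 5 were higher without overlap. The 5 include Mpo, by which the classes were divided, and Elane, given above. Within the low libraries 9 of the 12 pass. Ms4a3, a membrane protein of granulocyte and monocyte precursors, was 3.85, 0.61 and 1.06 against −2.40, −3.95, −2.71 and −3.95. Ctsg, the protease cathepsin G, was 4.54, 1.72 and 2.29 against −0.72, 0.38, −2.19 and −2.06. The pattern recognition lectin Fcnb was the fifth, at 2.26, 0.69 and −0.14 against −3.21 to −1.49. All 5 of these genes were above the WT range in each high library.

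The other 7 azurophil genes overlapped. Prtn3, which encodes proteinase 3, was 6.36, 3.96 and 4.40 against 2.70, 4.50, 2.60 and 2.36, and WT reached 5.55. Only KO replicate 3 exceeded the low libraries and WT for this gene. Prss57, a granule serine protease, was 2.05, −0.20 and −0.25, but KO replicate 5 of the low class had 0.17. Igsf6, Cst7, Hk3, Clec12a and Srgn differed by 0.87 to 1.14. KO replicate 2 of the low class reached the high libraries for the first 4 of these, and KO replicate 7 for Srgn.

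Specific and gelatinase granule genes were the most strongly separated list. Of 16 members 14 passed the filter, all 14 had a positive difference with a median of 3.57, and 10 were higher without overlap and above WT. Of the 14, 12 pass within the low libraries. Ngp, the neutrophilic granule protein, was 8.54, 5.93 and 6.17 against 1.20 to 2.76, and Ltf, lactotransferrin, was 7.18, 4.62 and 5.51 against 0.27 to 2.14. Itgb2l, Cd177 (a surface protein of mouse neutrophils), Olfm4, Mmp8, Chil3, Mmp9 and Pglyrp1 were the others besides Camp, with differences of 2.27 to 4.96. Camp is itself a marker of the classes, given above. Mmp8 and Mmp9 are the collagenase and the gelatinase of these granules.

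The other 4 tested members overlapped. Lcn2, an iron-siderophore binding protein of the acute phase, was 11.27, 10.46 and 10.11 against 7.95, 10.34, 9.10 and 11.12. Arg1, an enzyme of the urea cycle in hepatocytes, was 8.22, 9.80 and 11.44 against 3.96, 3.43, 8.52 and 10.48. Lyz2, the myeloid lysozyme, was 7.58 and 7.88 in KO replicates 3 and 4 and 10.02 in KO replicate 6, with 7.42 to 7.98 in the low class. Wfdc21 also overlapped, while Ceacam10 and Bpi were under the filter.

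Of the mature neutrophil genes, 15 of 23 were higher without overlap (29 members, median difference 2.24). The 15 include S100a8 and S100a9, markers of the classes given above. Of the 23, 18 pass within the low libraries, and Ly6g is not among them. Ly6g, the antigen of the Gr-1 antibody, was 2.0, −0.30 and 0.61 against −3.23 to −2.05, and Retnlg, a resistin-like secreted protein of neutrophils, was 5.47, 2.90 and 4.32 against 0.55 to 0.90. KO replicate 4 was the lowest of the 3 for both. Asprv1, Stfa2l1, Padi4 (which citrullinates histones in neutrophil traps), Il1r2, Cxcr2, Slfn4, Trem1, Clec4d, Csf3r and Mxd1 were among the others, higher by 0.94 to 3.40. In 11 of the 15 the high libraries were all above WT.

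The other 8 tested members of the mature neutrophil list overlapped. Il1b was 1.13, 2.76 and 3.76 against 2.0, 2.61, 1.77 and 2.98, so KO replicate 3, with the highest granule signal, had the lowest Il1b of all 7. Acod1, the itaconate-forming enzyme, was −3.15, −0.23 and 3.38, with 2.13 in KO replicate 2. Fpr1, Clec4e, Fpr2, Pilra, G0s2 and Msrb1 also overlapped. Stfa1, Stfa2, BC100530, Gm5483, Mrgpra2a and Mrgpra2b were under the filter, and reads of the stefin and Mrgpra2 copies may be shared among near-identical genes.

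Transcription factors of myeloid precursors were higher in part, with 4 of 16 without overlap and a median difference of 0.63. Myb, which keeps blood progenitors dividing, was 2.47, 0.02 and −0.84 against −2.75, −1.37, −3.95 and −3.95. Gfi1, a repressor needed for neutrophil formation, was 1.58, −0.33 and −0.58 against −2.15 to −1.61. Both were above the WT range in each high library. Gata2 was 2.88, 1.74 and 1.90 against −1.18 to 1.47, and Runx1 was 1.91 to 2.59 against 0.30 to 1.76.

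The other 12 factors overlapped. Cebpe, the C/EBP factor of late granule genes, was 3.32, 1.94 and 2.28 against 2.74, 1.81, 2.33 and 1.23. Cebpa and Cebpb, which are abundant in hepatocytes, differed by −0.22 and −0.16. Spi1, which encodes PU.1, was 4.61, 4.68 and 5.83 against 4.32, 4.96, 3.24 and 4.58. Nfe2, Ikzf1, Cebpd, Cbfa2t3, Klf4, Irf4, Irf8 and Cbfb were the rest.

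Of the blood stem and progenitor cell genes, 6 of the 16 tested were higher without overlap (20 members, median difference 0.71), and 13 of the 16 pass within the low libraries. They included Myb, Gata2, Tal1, Lyl1 and Kit, the receptor of stem cell factor. Tal1, a factor of stem and red cell precursors, was 4.25, 2.84 and 1.96 against −0.22 to 0.37, and the low libraries lay below the WT range of 0.40 to 1.33. Kit was 2.58, 2.79 and 3.64 against 2.55, 0.96, 0.93 and 2.56, all but the 2 lowest within the WT range. Cd34, which endothelium also expresses, differed by −0.48, and Meis1 and Erg by 0.09 and −0.19.

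Eosinophil, basophil and mast cell genes were higher in 7 of 11 (20 members, median difference 2.21). Only 4 of these 11 pass within the low libraries, so the count and the median are largely fixed by the filter. Prg2 and Epx, proteins of eosinophil granules, were highest in KO replicate 3, with Prg2 at 5.44, 3.77 and 2.47 against −1.42 to 2.27. Prss34, a basophil protease, was 2.14, −0.09 and 0.02 against −3.95 to −1.49. The mast cell proteases peaked in KO replicate 4. Cpa3 was −0.03, 2.02 and −1.73 against −3.95 to −3.08, and Cma1 was −1.32, 2.28 and −1.63 against −3.95 to −2.40. Tpsb2 also peaked in KO replicate 4, at 2.70, but its −1.95 in KO replicate 6 overlapped the low class. Hdc and Siglecf completed the 7, and Ear2, Ear6 and Ccr3 overlapped as Tpsb2 did.

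Megakaryocyte and platelet genes were higher in 9 of 13 (18 members, median difference 3.12), with KO replicate 3 first in 10 of 13. Of the 13, 8 pass within the low libraries. Tubb1, the platelet tubulin, was 4.90, 2.93 and 2.01 against −0.37, −0.39, −1.70 and 0.83. Itga2b and Itgb3 encode the fibrinogen receptor of platelets. Itga2b was 5.29, 4.21 and 3.46 against −0.07 to 2.11 and Itgb3 was 6.37, 4.81 and 4.77 against 1.07 to 3.90, both above WT. Gp9, Gp5, Treml1, Clec1b and Plek were also higher, and Nfe2, F2rl2, P2ry12 and Rap1b overlapped. Pf4 and Ppbp, the chemokines stored in platelets, were under the filter at a mean of 0.14 and 0.15 CPM.

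Erythroid genes split the high class. They were high in KO replicates 3 and 4 and not in KO replicate 6. The list score, the mean log2 CPM of the 28 tested members, was 4.53 and 3.20 in KO replicates 3 and 4, 0.95 in KO replicate 6, −0.36 to 1.73 in the low class and 0.26 to 1.33 in WT. KO replicates 3 and 4 were above all 4 low libraries in 21 of 28 genes, and KO replicate 6 in 5. Those 5, which include Gfi1b, Ermap, Tmod1 and Klf1, made up all erythroid genes without overlap. Of the 28, 17 pass within the low libraries. The list difference of 2.13 was 1.31 without KO replicate 3 and 3.10 without KO replicate 6.

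Single genes show this division. Slc4a1, the red cell anion exchanger band 3, was 7.02, 5.69 and 1.68 against 0.26, 3.24, −1.81 and 1.60. Rhag, part of the Rh complex of the red cell membrane, was 3.60 and 1.91 in KO replicates 3 and 4 and −3.22 in KO replicate 6. Gata1, the master factor of red cells, megakaryocytes and eosinophils, was 3.0, 1.19 and −1.63 against −3.95 to −0.73.

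Globin RNA, which mature red cells in blood also carry, overlapped. Hbb-bs was 9.08, 7.72 and 7.07 against 6.52, 7.64, 3.34 and 7.71, and WT was 5.79 to 8.34. KO replicate 5 had the lowest level of Hbb-bs among the 12 libraries. Reads of Hbb-bs and Hbb-bt, and of Hba-a1 and Hba-a2, may be shared between near-identical copies. The 4 globin genes differed by 1.35 to 1.70 and Alas2, the first enzyme of erythroid heme synthesis, by 1.01, with overlap in each.

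**Figure D2:**
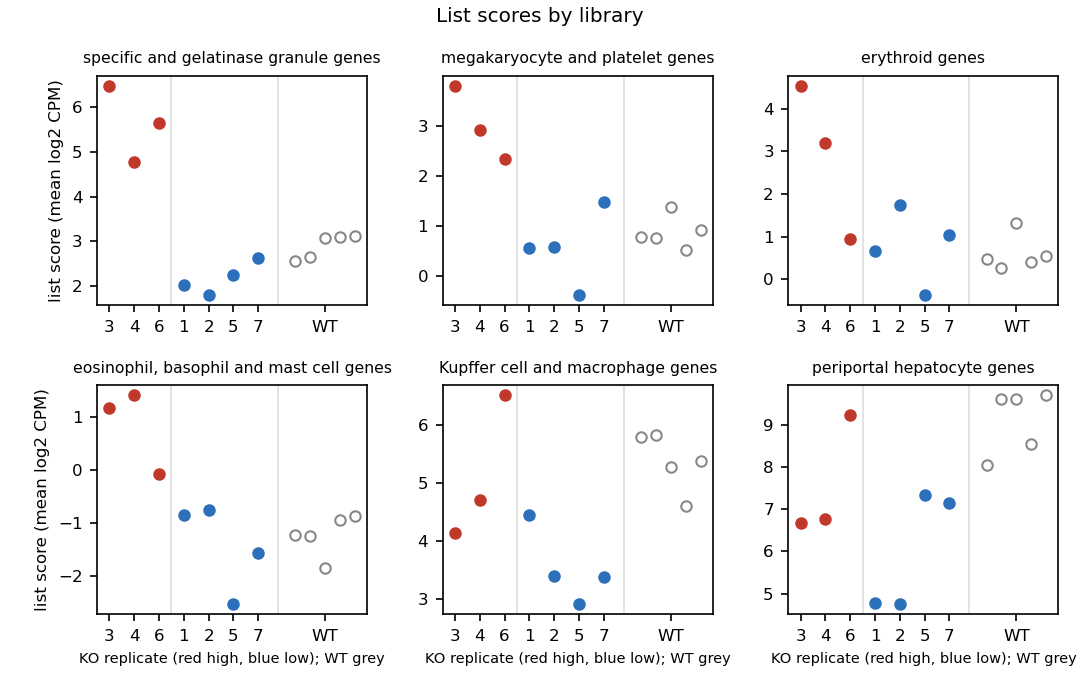
Scores of 6 gene lists (mean log2 CPM of the tested members) by library, with KO replicates 3, 4 and 6 in red, KO replicates 1, 2, 5 and 7 in blue and the 5 WT libraries in open grey. Specific granule and megakaryocyte scores are high in all 3 red libraries, erythroid scores in KO replicates 3 and 4 alone, and macrophage and periportal scores are highest among the KO libraries in KO replicate 6.

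Monocyte genes were higher in 4 of 17 (18 members, median difference 0.59). F13a1, a coagulation factor subunit of monocytes and platelets, was 4.13, 2.88 and 3.47 against 0.05 to 1.08, and Itgam, the CD11b integrin chain of neutrophils and monocytes, was 4.75, 4.13 and 5.82 against 1.60 to 3.60. Ly6c2, which marks inflammatory monocytes, was 4.24, 2.79 and 3.72 against 0.48 to 2.18, and Vcan was higher as well. Ccr2, the receptor that brings monocytes out of the marrow, was 2.34, 3.27 and 3.70 against 2.06, 2.05, 2.53 and 3.04. Fcgr1 and Cd14 overlapped, at differences of −0.10 and 0.37. The list difference of 0.85 was 0.54 without KO replicate 6.

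Kupffer cell and macrophage genes all had a positive difference, 20 of 20 with a median of 1.08, but KO replicate 6 was first among the 7 in 18 of them. Marco, a scavenger receptor, was 1.67, 2.22 and 8.20 against −1.37 to 0.05, with WT at −1.02 to 4.49. Vsig4, a complement receptor of Kupffer cells, was 4.50, 4.29 and 7.02 against 0.88 to 3.42, with WT at 4.01 to 6.09. Cd163 and Fcna were also higher without overlap. None of the 20 genes had all 3 high libraries above WT, and 5 had all 4 low libraries below WT, among them Clec4f and Vsig4. The list difference of 1.58 was 0.89 without KO replicate 6.

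The other 16 genes of the Kupffer cell and macrophage list overlapped. C1qa was 5.85, 7.26 and 8.11 against 6.68, 7.39, 5.94 and 6.95, and Csf1r was 5.98, 6.97 and 8.34 against 6.35, 7.0, 7.82 and 6.38. KO replicate 3, the library with the highest granule levels, had the lowest C1qa and Csf1r of the 7. It was the lowest of the high class in 17 of the 20 genes.

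The oxidase and lipid mediator genes of phagocytes were higher in 4 of 13 (15 members, median difference 1.18). Ncf1 and Ncf4 encode cytosolic proteins of the NADPH oxidase. Ncf1 was 5.60, 4.10 and 5.34 against 2.58 to 3.46. Alox5ap, which presents arachidonate to 5-lipoxygenase, was 5.25, 3.88 and 4.67 against 1.70 to 3.03. Cybb and Cyba, the membrane subunits, which macrophages also express, differed by 0.37 and 0.74 with overlap.

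Dendritic cell genes gave 0 of 11 higher, with a median difference of −0.42, where the share over all genes was 3.61%. For the whole list the difference of −0.43 was 0.23 without KO replicate 3, 1.05 between the deeper and −2.01 between the shallower libraries. Cd74, the invariant chain of MHC class II, was 6.28, 9.31 and 8.99 against 8.65, 11.34, 8.79 and 9.33. H2-Aa was −0.44, 1.41 and 1.51 against 2.27, 4.32, 1.02 and 2.85. KO replicate 3 was the lowest of the 7 for both, and KO replicate 2 the highest. No B cell gene of 7 and no T or NK cell gene of 15 was higher without overlap, which is also near that share. Their median differences were 0.46 and 0.11. Their list differences were 2.19 and 1.97 between the deeper libraries and −1.98 and −0.90 between the shallower ones. The T cell receptor and immunoglobulin constant genes Trac, Trbc2, Ighm and Igkc are listed at 0 in all KO libraries.

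**Figure D3:**
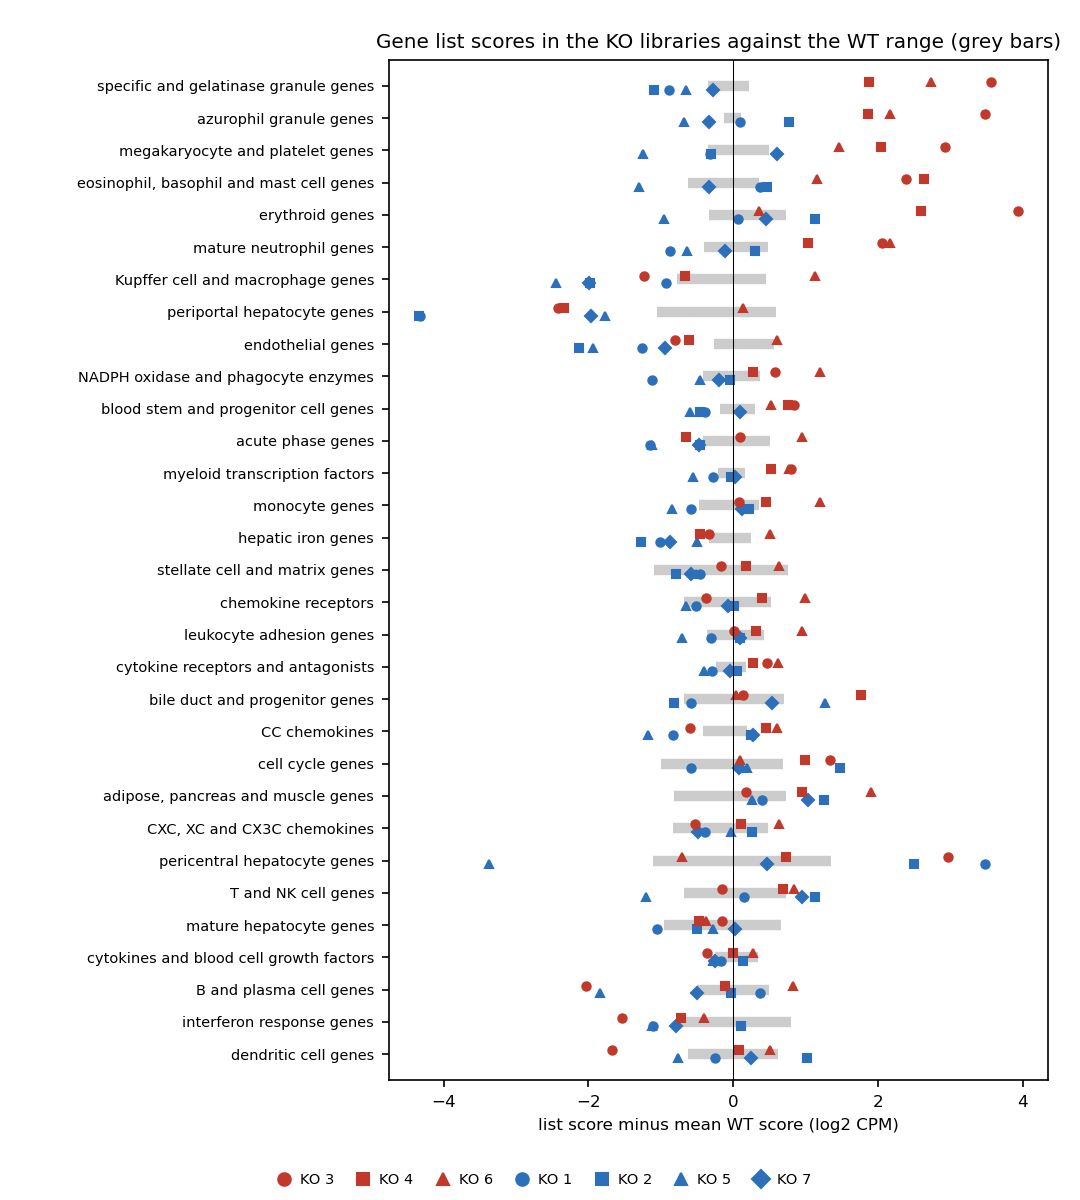
Scores of the 31 gene lists in each KO library minus the mean WT score (log2 CPM), for the high libraries (red) and the low libraries (blue), with the WT range as a grey bar. Scores of the 3 red libraries are all to the right of the 4 blue ones in 12 lists, and in 8 of these they are also to the right of the WT range.

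Of the tested chemokines 2 were higher without overlap. Among 21 CC chemokines 10 passed the filter and 1 was higher, and among 17 of the CXC, XC and CX3C families 10 passed and 1 was higher, where the share over all genes was 3.61%. Cxcl13, a B cell attractant that macrophages and stromal cells make, was 1.58, 2.35 and 7.44 against −3.23, −0.39, 0.23 and −1.61. All 3 high libraries were above WT, at −3.16 to 0.61, and KO replicate 6 stood far above the other 2. The difference of 5.04 was 3.22 without KO replicate 6. Ccl6, a chemokine of mouse myeloid cells, was 4.81, 5.26 and 6.37 against 3.80, 4.45, 2.41 and 4.75, and WT was 4.48 to 5.34.

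Cxcl1, a neutrophil attractant, overlapped between the classes. It was 4.55, 2.58 and 3.54 against 3.03, 4.79, 3.38 and 3.04, and WT ranged from 2.17 to 5.59. Cxcl2, Cxcl5 and Cxcl3 were under the filter at means of 0.27, 0.02 and 0.02 CPM. Cxcl12, which holds granulocytes in the marrow through Cxcr4, was 5.98, 6.45 and 8.13 against 5.96, 5.0, 7.36 and 5.92. Ccl2, Ccl3, Ccl4, Ccl5, Ccl8, Ccl9 and Ccl24 overlapped. The interferon-induced Cxcl9 and Cxcl10 differed by −0.66 and −0.65, with KO replicate 2 highest for each.

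Of 23 chemokine receptors 15 passed the filter and 2 were higher. Cxcr2, which neutrophils carry, was 3.18, 1.93 and 2.37 against −0.62, 0.12, 0.71 and 0.59, above the WT range of −1.03 to 0.87. Ackr1, the decoy receptor of venules and red cells, was 0.10, 0.37 and 3.14 against −2.54 to −0.98, and WT was 0.21 to 2.27. For Ackr1 all 4 low libraries lay below WT. Ccr1 was 2.77, 2.91 and 2.46 against 1.43, 1.85, 1.84 and 2.66, with 1 low library inside the span of the high ones. Cxcr4 differed by 0.34, and Cxcr1 was under the filter at 0.02 CPM.

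None of the 15 tested cytokines and blood cell growth factors was higher or lower without overlap (35 members, median difference 0.21). Over all genes 3.61% were higher and 2.75% lower, so this count is near that share. Csf3, which encodes granulocyte colony-stimulating factor, averaged 0.02 CPM, Il6 0.01 CPM and Csf2 0.01 CPM, all under the filter, and Tnf is listed at 0 in every KO library. Il1a, an interleukin-1 of macrophages and dying cells, was 0.17, 0.95 and 2.46 against 0.26, 0.70, −2.51 and −0.76. Thpo, the liver hormone that drives platelet formation, differed by −0.22, and Epo was 1.41 in KO replicate 3 and at most 0.12 in the other 6. Kitl, the ligand of Kit, was 4.22, 4.21 and 2.18 against 3.01 to 3.66, and the low class was above the WT range of 1.12 to 2.81.

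Of 30 tested cytokine receptors and antagonists 6 were higher (31 members, median difference 0.36), where the share over all genes was 3.61%. Csf3r, the granulocyte colony-stimulating factor receptor, was 3.74, 3.19 and 4.05 against 2.22, 2.75, 1.89 and 2.76, above the WT range of 2.20 to 3.09. Il1r2, the decoy interleukin-1 receptor of neutrophils, was 3.33, 1.18 and 1.20 against −1.49 to 0.75. Il18rap was 2.89, 1.60 and 2.05 against −0.29 to 1.04, and Csf2rb2, a chain of the interleukin-3 receptor, was 3.34, 3.60 and 5.08 against 1.81 to 3.25. Kit, given above, was also higher. Il1rn, the interleukin-1 receptor antagonist, and Il6ra overlapped, at differences of 0.62 and 0.50.

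**Figure D4:**
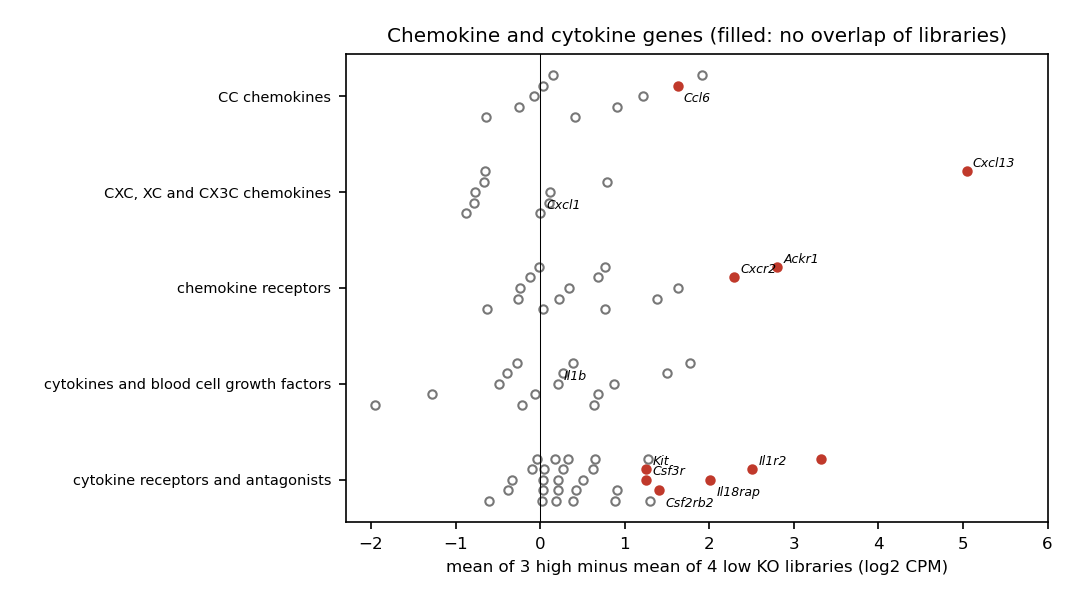
Difference of mean log2 CPM (3 high minus 4 low KO libraries) for each tested chemokine, cytokine and receptor gene, filled where the libraries of the 2 classes do not overlap. Cxcl13 and Ccl6 are the only filled ligands, Cxcl1 lies at 0.00, and the other filled points are receptors.

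Adhesion genes were higher in 4 of 18 (20 members, median difference 0.36). Selp, the P-selectin of platelets and endothelium, was 3.0, 3.15 and 4.68 against −0.29 to 1.97, and WT was 0.87 to 3.68. Itgam is given above, and Itga4 was 3.62, 3.83 and 3.73 against 1.77 to 3.14. The endothelial ligands Icam1 and Vcam1 differed by −0.23 and 0.34 with overlap, and Sele was under the filter.

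All 26 mature hepatocyte genes overlapped between the classes, with a median difference of −0.05. Over all genes 3.61% were higher and 2.75% lower without overlap, so a count of 0 is near that share. Alb was 16.40, 16.05 and 14.96 against 15.68, 16.49, 16.78 and 16.47. Cps1, the first enzyme of the urea cycle, had the largest difference at 2.06, with 8.34, 9.96 and 11.35 against 4.68, 6.51, 9.69 and 10.41. Reads of Serpina1a to Serpina1e may be shared among near-identical copies.

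Zonation genes varied widely inside each class. Periportal genes had a positive difference in 16 of 18 with a median of 1.45, and KO replicate 6 was the highest of the 7 in 14. None of the 18 was without overlap, near the shares over all genes of 3.61% higher and 2.75% lower. Sds, serine dehydratase, was 5.80, 5.22 and 10.04 against 0.30, −3.08, 6.99 and 5.68, and Hal, histidase, was 4.62, 5.26 and 9.15 against 2.26, −1.58, 6.39 and 6.97. The list difference of 1.56 was 0.72 without KO replicate 6, and −0.36 between the Xist-low KO replicates 4 and 7. In 8 of the 18 genes all 4 low libraries were below WT. Pck1, the targeted gene, is a member of this list and among those 8.

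The pericentral list score was highest in KO replicates 1, 2 and 3 and lowest in KO replicate 5. Glul, glutamine synthetase, was 13.51, 9.12 and 8.58 against 13.96, 13.20, 4.99 and 8.81. Axin2, a Wnt target, was 6.99, 4.93 and 1.55 against 7.01, 6.11, −0.01 and 4.63. The 3 libraries with the highest Glul thus fell on both sides of the division, and 0 of 18 pericentral genes were without overlap (median difference 0.19). That count is near the shares over all genes, 3.61% higher and 2.75% lower. The list difference of 0.23 was −0.75 without KO replicate 3, −1.15 without KO replicate 5 and 1.08 without KO replicate 6.

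Among 30 acute phase genes, 28 had a positive difference with a median of 0.62, and 1, Nnmt, was higher without overlap. That count is near the 3.61% of all genes that were higher. Nnmt, a methyltransferase of nicotinamide, was 6.30, 5.51 and 8.88 against 1.48, 4.92, 2.36 and 5.15, within a wide WT range of 1.50 to 9.68. Saa1, serum amyloid A, was 5.24, 4.52 and 9.39 against 5.45, 5.96, 2.72 and 3.76, so KO replicate 6 stood alone above the low class. Reads of Saa1 and Saa2, and of Orm1 and Orm2, may be shared. Hp, haptoglobin, and Socs3 differed by 0.13 and 0.04. Of the 30 genes 19 were highest in KO replicate 6, and the list difference of 0.94 was 0.53 without it. Between the Xist-low libraries it was −0.17.

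None of 21 iron genes was without overlap (median difference 0.28), near the shares over all genes of 3.61% higher and 2.75% lower. Hamp, the iron hormone hepcidin, was 3.25, 3.26 and 9.56 against −0.22, −1.84, 6.18 and 1.80, and WT was 4.21 to 8.46. Erfe, the hormone by which red cell precursors lower hepcidin, was 2.26, 0.56 and −3.54 against −3.95 to −1.33. Erfe was thus highest in KO replicates 3 and 4, the libraries with high erythroid genes, and near the floor in KO replicate 6. Hmox1, heme oxygenase, was 5.48, 5.35 and 7.87 against 5.01, 6.01, 2.99 and 5.09.

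Of 19 endothelial genes 6 were higher without overlap (20 members, median difference 0.81). Of the 6, 5 had all 4 low libraries below WT and 0 had the high libraries above WT. Lyve1, a hyaluronan receptor, was 5.38, 4.22 and 5.19 against 2.01, 1.67, 1.35 and 2.75, and WT was 3.79 to 4.89. Clec4g, a lectin of sinusoidal cells, was 3.80, 3.89 and 5.48 against 2.65, 1.0, 0.36 and 1.36, and WT was 4.06 to 6.62. Oit3 and Stab2 had the same order. Rspo3, a Wnt enhancer of central vein endothelium, was 0.10, 0.43 and 1.65 against −3.95 to −1.33, and WT was 0.48 to 2.28. Wnt9b was the other.

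The other 13 tested endothelial genes overlapped. Cdh5 was 5.35, 5.67 and 7.28 against 5.64, 5.41, 5.70 and 6.54, Pecam1 differed by 0.17 and Plvap by 0.08. KO replicate 6 was first in 16 of the 19 endothelial genes. The list difference of 1.30 was 0.86 without KO replicate 6 and 0.33 between the Xist-low libraries.

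Of 18 stellate cell and matrix genes 4 were higher, with a median difference of 0.66. Dcn, decorin, was 5.90, 6.25 and 7.66 against 5.48, 4.27, 3.99 and 4.30, and WT was 6.48 to 7.48. Tagln was 4.31 to 5.19 against 3.11 to 3.93. Col1a1 and Col1a2, the chains of type I collagen, were the other 2, with small differences of 0.34 and 0.63. The low libraries had the lower Dcn, as they had the lower sinusoidal genes.

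**Figure D5:**
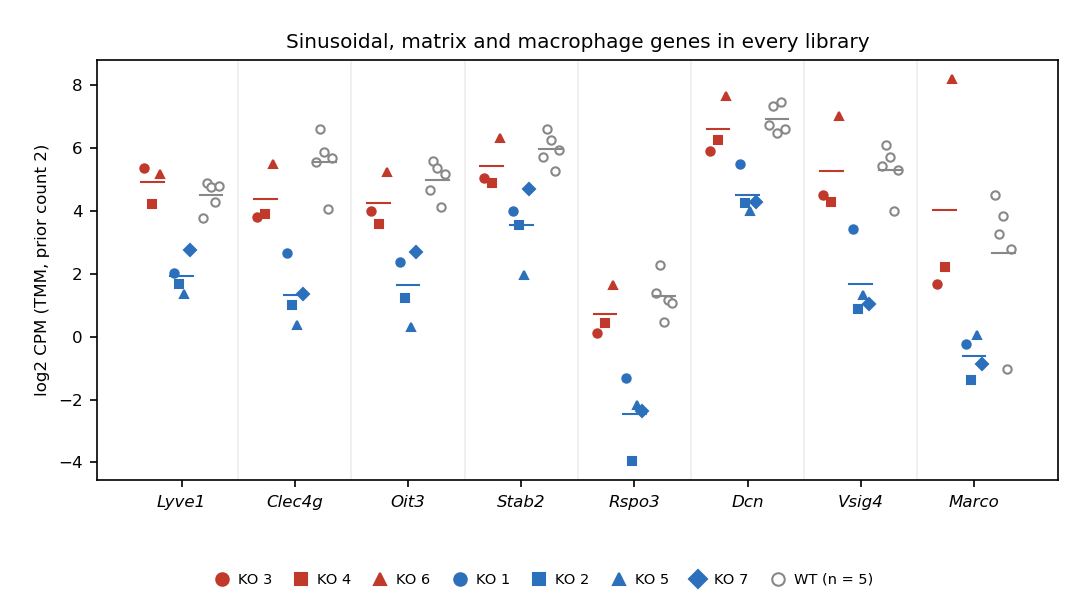
Level of 5 sinusoidal or vascular genes, Dcn and 2 macrophage genes (log2 CPM) in the 3 high libraries (red), the 4 low libraries (blue) and the 5 WT libraries (open grey circles), with a line at each mean. The blue libraries are below WT for the first 6 genes and Vsig4. For these genes the red ones lie within the WT range or close below it, and some lie above it. Marco is far higher in KO replicate 6 than in any other library.

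Other lists gave few or no genes. Over all genes 3.61% were higher and 2.75% lower, so counts this small are near that share. Bile duct and progenitor genes gave 1 of 15. The 26 cell cycle genes gave 0, with Mki67 at 5.56, 4.86 and 2.70 against 1.77, 4.21, 2.44 and 2.45, and the 26 interferon response genes gave 0 with a median difference of −0.04. Cfd, a serine protease of fat cells, was 3.58 in KO replicate 6 and at most −3.21 in the other 6, and 0 of 4 tested adipose, pancreas and muscle genes were without overlap.

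The 15 higher genes with the largest differences held 9 list members and 6 others. A1bg, a plasma glycoprotein gene, was 6.46, 4.69 and 6.26 against −2.40, −3.95, −2.05 and −0.09, the largest difference of all at 7.92. In WT it was −0.30 in 1 library and 6.39 to 7.62 in the other 4. Cyp2b10, a drug-metabolizing cytochrome P450 induced through the receptor CAR, was 1.82, 2.37 and 5.89 against −3.23 to 0.16. A1bg and Cyp2b genes are known to be more abundant in female than in male mouse liver. KO replicate 4, an Xist-low library, had A1bg above that of the Xist-high KO replicates 1, 2 and 5. In the Xist-low WT replicates 2, 3 and 5 A1bg was 7.61, 7.62 and 6.39, and Cyp2b10 was 7.41, 7.45 and 7.01. The Xist-low WT replicate 1 had −0.30 and 3.21, and the Xist-high WT replicate 4 had 6.71 and 3.28. The part of sex in these differences was not tested.

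Gm7086, Fgf23 and Adra2a were also among them. Fgf23, a hormone of phosphate balance, was 1.95, 0.86 and 3.36 against −3.95 to −0.16, and WT was −0.40 to 3.62. Adra2a, an adrenergic receptor, was 4.50, −0.54 and 2.70 against −3.08 to −1.12, above the WT range of −2.89 to −1.17. Gm7086 was 7.26, 5.06 and 1.95 against −3.95 to −0.16, and WT was −0.88 to 5.70.

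The 400 lower genes had smaller differences. Of them 65 had all 3 high libraries below all WT libraries, and 71 had all 4 low libraries above all WT libraries. Wisp2, a secreted CCN family protein, was 3.16, 3.12 and 2.16 against 5.27, 5.78, 3.27 and 3.63, the largest average level among the first 15. Cldn15, a tight junction protein, was −0.03, 0.14 and 0.14 against 1.19, 1.15, 4.40 and 1.92. Tap2, a subunit of the peptide transporter for MHC class I, was −0.44, −1.51 and −1.14 against 0.49, 2.20, −0.37 and 0.55. Mta1, a subunit of the NuRD chromatin complex, was −1.15, −2.27 and −1.63 against 1.75, 1.67, −0.33 and 0.37. The remaining 11 were Drp2, 2310016G11Rik, Pcdhgb4, Gm12185, Gm32006, Trim37, Ergic2, Cd300ld3, Marcksl1-ps4, C330021F23Rik and Gm15411.

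Across the lists, scores of all 3 high libraries were above all 4 low ones in 12 of 31 and below in 0. The lists share members, with 36 genes in several lists, so the 12 are not separate sets of genes. In 8 of the 12 all high libraries were also above WT. These were the azurophil, specific granule, mature neutrophil, myeloid transcription factor, eosinophil, basophil and mast cell, progenitor, megakaryocyte and cytokine receptor lists. Mpo, by which the classes were divided, is part of the azurophil score, as is the marker Elane. The marker Camp is part of the specific granule score, and S100a8 and S100a9 are part of the mature neutrophil score. In 2 of the 12, the endothelial and iron lists, all low libraries were below WT. Within the deeper libraries (KO replicates 4 and 6 against 5) the azurophil list differed by 2.69 and within the shallower ones (KO replicate 3 against 1, 2 and 7) by 3.30, and the megakaryocyte list by 3.0 and 2.92. Kupffer cell genes differed by 2.68 in the deeper and 0.40 in the shallower libraries, and monocyte genes by 1.68 and 0.17.

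Between the genotypes, with all 12 libraries, edgeR's quasi-likelihood test passed 0 of 14666 genes as higher (0.00%) and 0 as lower (0.00%) after adjustment at 0.05, and 1064 and 1091 before it. With DESeq2 249 genes passed as higher and 241 as lower. Leaving out KO replicate 6 let edgeR pass 14 and 51, and leaving out any other library at most 1. No list member passed in the edgeR fit of all libraries, and the 5 marker genes had standard errors of 1.04 to 1.32 on the log2 scale. Xist state, which was unevenly spread over the genotypes, was not part of the fit.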

How the data were processed

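RNA sequencing counts of 12 liver tumour libraries, 7 labelled Pck1-null and 5 labelled WT, were used. Per the labels' protocols, Trizol was used for extraction and RNA with an integrity number above 8 for libraries. The deposited table holds raw read counts per gene symbol for 46095 genes. Reads were aligned with HISAT2 to mm10, per the submitters' processing notes. The counting program, its strand setting, the annotation and its tool versions were not given in the sources used here. Overlapping, antisense and near-identical genes may therefore share reads. Replicates are numbered by accession order. KO replicate 7, labelled Pck1-null, has a title beginning with KP. No 2 libraries of a group agreed within sampling noise (smallest chi-square per degree of freedom 71.0).

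Log2 CPM used TMM scaling over 12 libraries and a prior count of 2 (edgeR 4.0.16, R 4.3.3). Genes with a mean of at least 0.5 CPM over the 7 KO libraries were described, 14523 in all, of which 14122 also pass within the low libraries. KO against WT was tested with edgeR's robust quasi-likelihood test after filterByExpr (minimum count 10, minimum total 15) with Benjamini-Hochberg adjustment. DESeq2 1.42.0 was an alternative. The fits were tested on simulated data. The 31 lists hold 614 genes, 612 of them in the table (Ahsp and Sirpb1c were not matched). List scores average log2 CPM over the tested members. Members, lists and tests were chosen with earlier results of these data known. Named genes are the 5 markers, Pck1, Xist and Glul, the first 15 genes per direction without overlap, up to 8 members per list by absolute difference, chemokines, cytokines and their receptors, and members needed to account for those that overlapped. Alternatives were other scalings, priors and filters, each library left out, and depth classes. Xist classes were added after seeing the data. A few genes are not reported here by name, and counts over lists include them.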

Additional observations from a re-analysis of the deposited data

Results flagged for a closer look

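In 72 groups checked (31 list scores and 5 markers, in KO and in WT), a sample stood apart in 2, and chance flags about 1 in 20. The erythroid score of WT replicate 3, at 1.33 log2 CPM, lay above the other 4 WT libraries by 0.740 of the group's range. Elane in WT replicate 2, at −2.02, lay below the others by 0.723 of the range. No list score or marker of the 7 KO libraries was flagged.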

How the results depend on the processing

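Counts of genes without overlap depend on the number of libraries: fewer libraries separate more genes by construction. Leaving out 1 KO library gave 766 to 1063 higher genes (524 with all 7), 595 to 1030 lower (400) and 12 to 17 lists (12). The deeper libraries alone gave 5169 higher, 5871 lower and 28 lists, the shallower alone 3522, 3542 and 21, the Xist-high 1268, 1218 and 13, and the Xist-low 7231, 7057 and 31. With no filter 838 genes were higher, and with library size as the only scaling 151 were lower. RLE, upper quartile, a prior count of 0.5 and a mean CPM of at least 2 kept each count within 1.5 times. Other scalings moved list and gene differences by at most 0.10, so signs of smaller differences are not firm, and Cxcl1 became positive. A prior count of 0.5 moved these differences by up to 1.12, for Myb from 3.56 to 4.68, and changed no sign.

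For KO against WT, DESeq2 called 249 higher and 241 lower genes, and the unfiltered edgeR fit 0 and 1. Leaving out each library gave 0 to 14 higher and 0 to 51 lower, the highest without KO replicate 6. No paired analysis was possible because the labels carry no replicate numbers. Levels of genes near the filter rest on few counts.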
